A study of Oryza sativa with 6 samples.

Results

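ATP-binding cassette (ABC) proteins of rice (Oryza sativa) were followed in leaves under drought. They were taken as the single-gene probes of the array whose gene carries a systematic ABC name, a subfamily letter from A to I followed by a number, among its synonyms in the gene table. The rule found 16 probes of 13 genes among the 22575 spots of the array. All 16 were among the 17727 annotated probes tested. Of the subfamilies A to I only C, G and I had a member: ABCC13 was the single gene of subfamily C, ABCI12 the single gene of subfamily I, and the other 11 genes with 14 probes belonged to subfamily G. The comparison of subfamilies is therefore in the main an account of ABCG genes beside 1 gene each of C and I. The gene table held 15 genes with such a name, and the 2 with no single-gene probe, ABCG35 and ABCG48, were also of subfamily G.

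Most ABC proteins are membrane pumps, or parts of them, that use ATP to move substrates across a membrane. Plants have a large family of them, sorted by sequence into subfamilies. Subfamily G is the largest in plants and is known for exporting waxes and cutin precursors, suberin, terpenoids and hormones such as abscisic acid. Its proteins come in a short form (the WBC type), which works as a dimer, and in a long form (the PDR type, for pleiotropic drug resistance), in which a single chain makes the whole pump. Subfamily C (the MRP type) loads vacuoles with conjugates and organic anions. Subfamily I holds plant proteins that resemble the separate parts of bacterial ABC pumps. By their older names in the gene table, 10 of the 11 ABCG genes measured were of the PDR type and 1, OsABCG5, of the WBC type.

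Leaf RNA of 2 rice genotypes was measured on 2-colour Agilent oligonucleotide arrays, 3 for Apo, which the submitters call drought tolerant, and 3 for IR64, which they call drought susceptible. On every array, RNA of well-watered control leaves (Cy5), harvested 37 days after sowing, was hybridised with RNA of leaves of the same genotype from plants without water since day 33 (Cy3). The stress lasted 5 days by the sample labels and 6 days by the series text, so control and stressed leaves may differ in age. No dyes were exchanged, so within a genotype an effect of the dyes and of the stress cannot be told apart. The labels do not say whether replicates came from separate plants, and a p-value here covers the spread among the arrays alone, which may be technical. RNA from leaves mixes cell types, so fewer cells of a type and less RNA per cell cannot be told apart.

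Each array gave 1 log ratio per spot, with the base taken as 10 from the software that made it. Which of the RNAs forms the numerator is not stated, and it was not taken from the software. Ratios are therefore called positive or negative and not higher or lower in drought. As a landmark, the 5 probes for dehydrins (RAB16B, RAB16C, RAB16D, rab25 and Dhn1), proteins known to accumulate in drying plant tissue, were all positive past the threshold in both genotypes, with means of 0.935 to 1.72 in Apo and 0.685 to 1.48 in IR64. A positive ABC ratio thus lay on the same side as these dehydrins. Whether that side stands for more RNA in drought was not tested. The threshold is a limma p-value below 0.05 after Benjamini-Hochberg adjustment over all 17727 probes. Errors are standard deviations (SD) over 3 arrays. The fit gives each probe a single spread, shared by the arrays of both genotypes and moderated by limma over all probes. A p-value therefore does not measure the SD printed beside it. Leaving out an array of a genotype can also change calls of the other.

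One array stood apart from its label. Across the tested probes, correlations of IR64 replicate 1 ranged from 0.832 to 0.894 against Apo and from 0.755 to 0.767 against its own genotype. Those of IR64 replicates 2 and 3 against Apo ranged from 0.624 to 0.734. IR64 replicate 1 lay nearer to the Apo mean than to the mean of IR64 replicates 2 and 3 for 62.3% of all probes and for 7 of the 16 ABC probes. ABC calls that change without IR64 replicate 1 are given with and without it. Markers of other tissues were counted past the threshold. In Apo 0 were positive and 2 negative of 5 root probes, and 1 and 1 of 3 vascular probes. None of 2 anther probes passed, and 0 and 1 of 5 seed storage probes. In IR64 the root counts were 0 and 2 and the vascular counts 1 and 0, with no anther or seed storage probe past it. Over all tested probes 24.5% were positive and 25.6% negative in Apo, and 22.7% and 20.2% in IR64. The largest absolute mean of these markers was -0.864 in Apo (IRT1, root) and 0.782 in IR64 (CESA4, vascular). Of 5 leaf probes (light harvesting and chlorophyll synthesis), 4 were negative in Apo and 3 in IR64, against 25.6% and 20.2% of all probes. Ratios show change and not presence, so the leaf label could not be checked by level, and the part of these markers in the ABC ratios was not tested.

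The first question was which ABC probes departed from a log ratio of 0 under stress. In Apo 12 of 16 passed the threshold, against 50.1% of all tested probes. Of these, 9 were positive, against 24.5% of all probes, and 3 negative, against 25.6%. In IR64 13 of 16 passed, against 43.0% of all probes, with 9 positive (22.7% of all probes) and 4 negative (20.2%). The median ABC ratio was 0.161 in Apo and 0.125 in IR64, beside -0.00318 and 0 over all tested probes. On each of the 6 arrays between 9 and 13 of the 16 probes were positive. The median absolute mean over the 6 arrays was 0.260 for the ABC probes and 0.120 for all tested probes. Without IR64 replicate 1 the IR64 count was 9, with 6 positive and 3 negative, while the share of all probes was 47.7%. Without IR64 replicate 2 it was 8, against 28.6% of all probes, and without replicate 3 it was 7, against 29.7%. With a minimum of 2-fold beside the threshold, 6 ABC probes remained in Apo, against 23.6% of all probes, and 6 in IR64, against 17.7%.

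**Figure D1:**
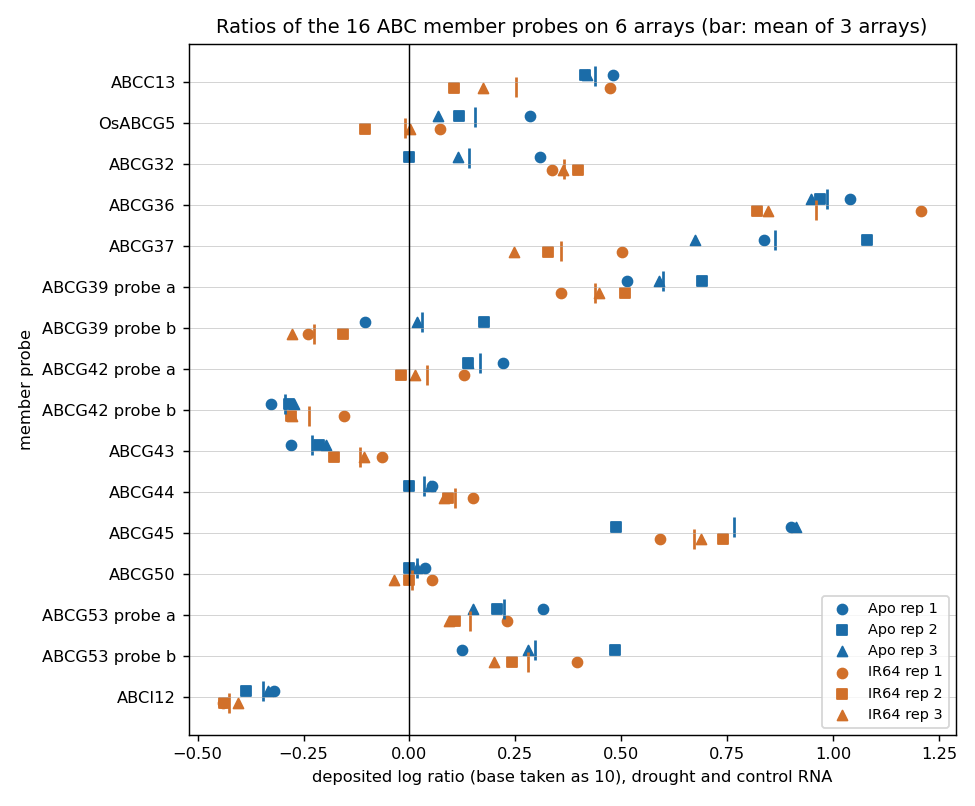
Deposited log ratio (horizontal axis, base taken as 10) of each of the 16 ABC probes (vertical axis), with 1 point per array in blue for Apo and orange for IR64, a marker shape per replicate and a vertical bar at the mean of 3 arrays. ABCG36 reached 1.21 on IR64 replicate 1, and ABCI12 lay between -0.439 and -0.319 on all arrays.

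A count of 10 ABC probes passed the threshold in both genotypes with a single sign, against 30.8% of all probes. Over the mean of both genotypes 13 passed, against 58.1% of all probes. Of these, 10 were positive and 3 negative, against 29.3% and 28.8% of all probes. A set of 7 probes, from ABCC13 and 5 ABCG genes, was positive on all 6 arrays, which held for 23.9% of all probes, and 3 were negative on all 6, which held for 24.0%. ABCG36 had the highest ratio of the 16 on 5 arrays and ABCG37 on the remaining 1. ABCI12 had the lowest on 5 arrays.

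By subfamily, ABCC13 was positive on every array, ABCI12 negative on every array, and ABCG spanned both sides. The median of the 14 ABCG probes was 0.253, 0.157 and 0.127 on the Apo arrays and 0.190, 0.0989 and 0.0869 on the IR64 arrays, while the median of all probes lay between -0.000962 and 0. The ABCG median was therefore positive on all 6 arrays. Past the threshold in Apo 8 of the 14 ABCG probes were positive, against 24.5% of all probes, and 2 negative, against 25.6%. In IR64 8 were positive, against 22.7% of all probes, and 3 negative, against 20.2%. With 1 gene each, C and I give values of single genes and not of a subfamily.

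**Figure D2:**
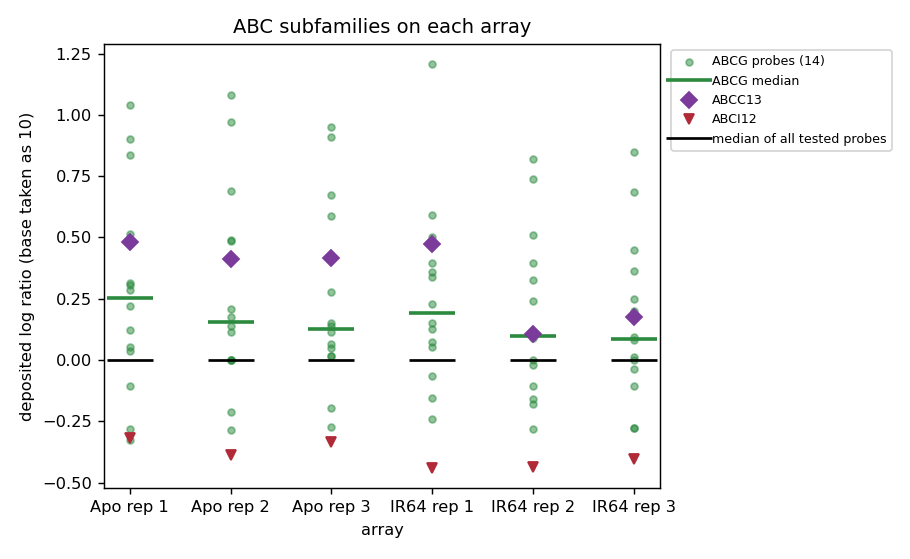
Deposited log ratio (vertical axis, base taken as 10) on each of the 6 arrays (horizontal axis), with green points for the 14 ABCG probes, a green bar at their median, a diamond for ABCC13, a triangle for ABCI12 and a black bar at the median of all tested probes. The ABCG median lies above the black bar on every array, from 0.0869 to 0.253.

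ABCG36 (LOC4327728, also OsPDR9) is a PDR-type exporter known from rice roots, where its transcript responds to osmotic stress and heavy metals and where it has been linked to cadmium tolerance. Its ratios were 1.04, 0.970 and 0.949 in Apo and 1.21, 0.821 and 0.847 in IR64. The IR64 values lay on both sides of the Apo range, with replicate 1 the highest, so the genotypes overlapped. The means were 0.987 ± 0.0481 in Apo (adjusted p = 0.000126) and 0.959 ± 0.216 in IR64 (adjusted p = 0.000194), ratios of 9.70 and 9.09 if the base is 10. Only 0.857% of all tested probes had a mean over the 6 arrays as high. Without IR64 replicate 1 its IR64 mean was 0.834.

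ABCG37 (LOC4327730, OsPDR8) lies beside ABCG36 on chromosome 1 in the gene table, with 1 protein-coding gene between them, and ABCG35 is the next gene on the other side of ABCG36. The ABCG37 ratios were 0.837, 1.08 and 0.673 in Apo and 0.501, 0.326 and 0.247 in IR64. All arrays were positive, and every Apo array lay above every IR64 array. The means were 0.864 ± 0.205 in Apo (adjusted p = 0.000297) and 0.358 ± 0.130 in IR64 (adjusted p = 0.0137), and the IR64 value missed the threshold without replicate 1 (0.286, adjusted p = 0.0601) or without replicate 2 (0.374, adjusted p = 0.0573). The probe sequences were not used here, so shared signal between these related genes was not tested.

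ABCG45 (LOC4346210, OsPDR1), also of the PDR type, had ratios of 0.900, 0.488 and 0.912 on the Apo arrays and 0.592, 0.739 and 0.687 on the IR64 arrays. Apo replicate 2 was the lowest of the 6 and the genotypes overlapped. Its means were 0.767 ± 0.241 (adjusted p = 0.000544) and 0.673 ± 0.0747 (adjusted p = 0.00124). ABCG45 and ABCG36 were among the 4 highest ABC ratios on all 6 arrays.

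ABCG39 (LOC4328687, OsPDR7) had a pair of probes, called a and b here, which disagreed. Probe a had ratios of 0.513, 0.691 and 0.590 on the Apo arrays and 0.358, 0.510 and 0.448 on the IR64 arrays, with means of 0.598 ± 0.0891 (adjusted p = 0.000126) and 0.439 ± 0.0763 (adjusted p = 0.000572). Probe b had ratios of -0.106, 0.175 and 0.0169 on the Apo arrays and -0.239, -0.157 and -0.277 on the IR64 arrays. Probe a was thus positive on every array, while probe b was scattered about 0 in Apo and negative in IR64. Probe b did not pass the threshold in Apo (0.0287 ± 0.141, adjusted p = 0.693) and was negative in IR64 (-0.225 ± 0.0614, adjusted p = 0.0183), a call that was lost without IR64 replicate 1 (adjusted p = 0.0588) or replicate 3 (adjusted p = 0.0963).

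The pair of probes for ABCG42 (LOC4341281, OsPDR12) had opposite signs in Apo. Probe a had ratios of 0.220, 0.138 and 0.139 on the Apo arrays and 0.128, -0.0199 and 0.0122 on the IR64 arrays. Its Apo mean of 0.166 ± 0.0469 passed the threshold (adjusted p = 0.0126), though not without Apo replicate 1 (0.139, adjusted p = 0.0684), and its IR64 mean of 0.0402 ± 0.0780 did not (adjusted p = 0.443). Probe b was negative on every array, at -0.328, -0.284 and -0.273 on the Apo arrays and -0.154, -0.281 and -0.276 on the IR64 arrays. Its means were -0.295 ± 0.0288 (adjusted p = 0.000794) and -0.237 ± 0.0719 (adjusted p = 0.0026), and the genotypes overlapped on this probe.

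ABCG53 (LOC9269190, OsPDR20) had probes on the same side. Probe a had ratios of 0.315, 0.207 and 0.151 on the Apo arrays and 0.230, 0.107 and 0.0922 on the IR64 arrays. Probe b had ratios of 0.124, 0.485 and 0.279 on the Apo arrays and 0.394, 0.242 and 0.200 on the IR64 arrays. All values were positive and the genotypes overlapped on both probes. The Apo means were 0.224 ± 0.0834 (adjusted p = 0.00624) and 0.296 ± 0.181 (adjusted p = 0.0138), and the IR64 means 0.143 ± 0.0757 (adjusted p = 0.0402) and 0.279 ± 0.102 (adjusted p = 0.0207). In IR64 both calls were lost when any 1 IR64 array was left out, with adjusted p = 0.121, 0.0961 and 0.0800 for probe a and 0.0858, 0.0725 and 0.0519 for probe b without replicates 1, 2 and 3. Without Apo replicate 2 or 3, probe a missed the threshold in IR64 (adjusted p = 0.0629 and 0.0569) and probe b in Apo (adjusted p = 0.0586 and 0.0547).

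Disagreement between probes of a gene was set beside the 1671 genes with exactly 2 tested probes. Their means over the 6 arrays differed by a median of 0.119, and 35.7% had means of opposite sign. In 7.96% such opposite means both passed the threshold for the mean of both genotypes. ABCG42 was among these, with 0.103 for probe a (adjusted p = 0.0175) and -0.266 for probe b (adjusted p = 0.00019). The ABCG39 probes differed by 0.616, a gap reached by 3.41% of such genes, and probe a was higher on all 6 arrays. The ABCG42 probes differed by 0.369, reached by 13.7%, again with probe a higher on all 6 arrays. The ABCG53 probes differed by 0.104, reached by 54.3%. For ABCG39 and ABCG42 the ratio of the gene therefore depends on the probe.

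**Figure D3:**
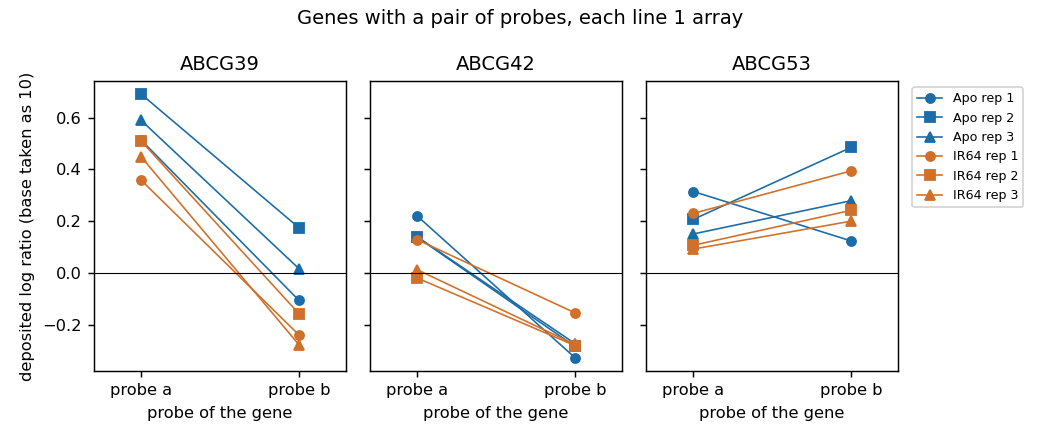
Deposited log ratio (vertical axis, base taken as 10) of both probes (horizontal axis) of ABCG39, ABCG42 and ABCG53, with 1 line per array in blue for Apo and orange for IR64. Every ABCG39 line falls from probe a to probe b by 0.516 to 0.726, and every ABCG42 line by 0.261 to 0.547.

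OsABCG5 (LOC4332449), known as RCN1 and OsWBC5, is the WBC-type gene of the set. It is known in rice for building suberin in the root, for shoot branching and for a role in stomatal closure. Its ratios were 0.285, 0.116 and 0.0662 in Apo and 0.0732, -0.104 and 0.000712 in IR64. Apo replicate 1 was the highest and the genotypes overlapped at the lowest Apo and the highest IR64 array. The Apo mean of 0.156 ± 0.115 lay just past the threshold (adjusted p = 0.0485) and the IR64 mean of -0.0101 ± 0.0892 did not pass it (adjusted p = 0.898). The Apo call was lost without any 1 Apo array (adjusted p = 0.219, 0.100 and 0.0589 without replicates 1, 2 and 3) and without IR64 replicate 2 (0.0539) or 3 (0.0803). It was also lost with each genotype fitted alone (0.0799), arrays scaled to a common spread (0.0536), a robust variance prior (0.0514) or spots at 0 on all arrays kept (0.0559). OsABCG5 and probe b of ABCG39 were the 2 ABC probes with genotype means of opposite sign and at least 1 of them past the threshold, which 7.56% of all probes had.

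The remaining 4 ABCG genes, all of the PDR type, fell outside the rule for named genes and are given so that every member is accounted for. ABCG43 (LOC4343412, OsPDR5), known for a cadmium-induced transcript in rice and for cadmium tolerance in yeast, was negative on all arrays, at -0.280, -0.214 and -0.196 in Apo and -0.0639, -0.178 and -0.107 in IR64. Every Apo array was more negative than every IR64 array. Its means were -0.230 ± 0.0441 (adjusted p = 0.00201) and -0.116 ± 0.0579 (adjusted p = 0.0357), the latter with an adjusted p = 0.0547 when the replicate number was a block in the fit. The IR64 call was also lost without Apo replicate 2 (adjusted p = 0.0564) or 3 (0.0681), without IR64 replicate 2 (0.173) or 3 (0.113), and with each genotype fitted alone (0.0903).

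ABCG32 (LOC4326812, OsPDR16) was listed at 0.307, 0 and 0.115 on the Apo arrays and 0.337, 0.397 and 0.363 on the IR64 arrays. Every IR64 array lay above every Apo array. IR64 passed the threshold (0.366 ± 0.0299, adjusted p = 0.0029) and Apo did not (0.141 ± 0.155, adjusted p = 0.0811), but it did without replicate 2, the array listed at exactly 0 (0.211, adjusted p = 0.0317). Without Apo replicate 1 its Apo mean was 0.0577 (adjusted p = 0.325). ABCG44 (LOC4345450, OsPDR17) had ratios of 0.0525, 0 and 0.0484 on the Apo arrays and 0.151, 0.0909 and 0.0815 on the IR64 arrays, with IR64 past the threshold (0.108 ± 0.0376, adjusted p = 0.0282) and Apo not (0.0336 ± 0.0292, adjusted p = 0.388). The IR64 value missed the threshold without Apo replicate 3 (adjusted p = 0.0640), IR64 replicate 2 (0.0822) or IR64 replicate 3 (0.0754), and with each genotype fitted alone (0.0800). ABCG50 (LOC4352332, OsPDR23) lay between -0.0355 and 0.0528 and passed in neither genotype. It was listed at exactly 0 on 2 arrays, and what such a 0 stands for is not given in the sources used here.

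ABCC13 (LOC4331585), known as LPA2 and OsMRP5, is an MRP-type protein of rice whose loss lowers phytic acid in the grain. Its ratios were 0.481, 0.414 and 0.418 in Apo and 0.474, 0.105 and 0.175 in IR64. IR64 replicate 1 lay within the Apo range, and the other IR64 arrays far below it. The means were 0.438 ± 0.0374 (adjusted p = 0.00237) and 0.251 ± 0.196 (adjusted p = 0.0265). Without IR64 replicate 1 the IR64 mean was 0.140 (adjusted p = 0.0201). The IR64 value missed the threshold without Apo replicate 1 (adjusted p = 0.0513) or IR64 replicate 3 (0.0610), and with each genotype fitted alone (0.103).

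ABCI12 (LOC4341938), known as STAR1, is the ATP-binding part of a pump that rice needs for tolerance of aluminium, together with the membrane protein STAR2. Its ratios were -0.319, -0.386 and -0.333 in Apo and -0.439, -0.437 and -0.404 in IR64. Every array was negative, and every IR64 array lay below every Apo array. The means were -0.346 ± 0.0352 (adjusted p = 0.000181) and -0.427 ± 0.0200 (adjusted p = 0.000113), and 7.58% of all tested probes had a mean over the 6 arrays as low. Its partner STAR2 (LOC4337635), chosen after the members were known, had a pair of probes, neither past the threshold in either genotype. The first had means of 0.000654 ± 0.137 in Apo and 0.0285 ± 0.0604 in IR64, and the other of 0.164 ± 0.175 and -0.0780 ± 0.0603. Both STAR2 probes thus had values on either side of 0, unlike ABCI12.

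The second question was whether the response of the ABC probes depended on the genotype. The widest gap between genotype means was that of ABCG37, 0.506 higher in Apo (95% interval 0.228 to 0.784), with an adjusted p = 0.0737 from limma. No ABC probe passed the threshold for Apo minus IR64 in limma, against 2.02% of all probes, while 4 had an unadjusted p below 0.05, which 27.3% of all probes had. Besides ABCG37 these were ABCG32 at -0.225 (-0.418 to -0.0319), ABCG39 probe b at 0.253 (0.0644 to 0.442) and ABCG39 probe a at 0.159 (0.00403 to 0.314). Their adjusted p-values were 0.142, 0.115 and 0.175.

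**Figure D4:**
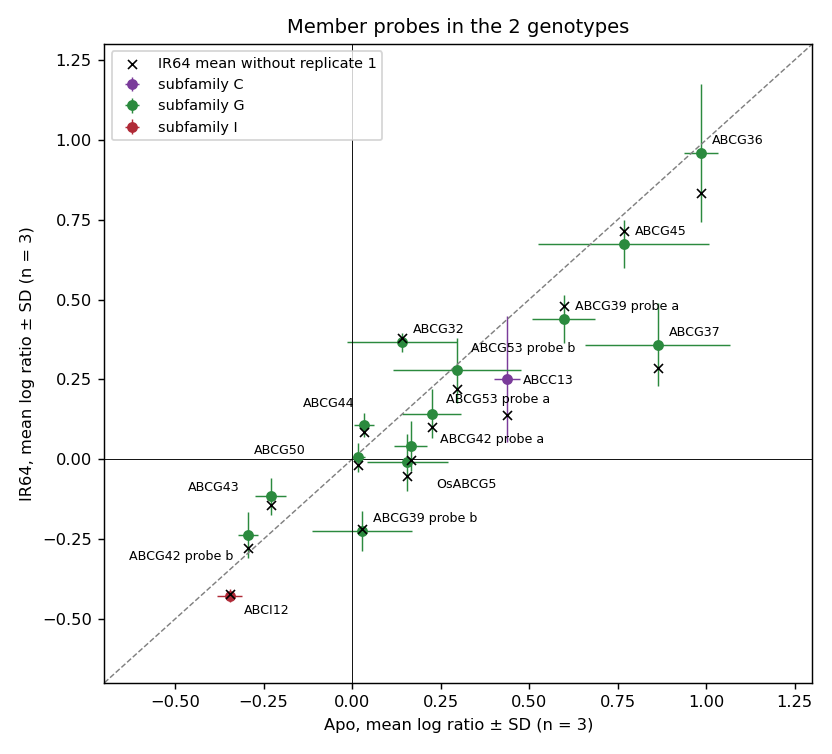
Mean log ratio in IR64 (vertical axis) against that in Apo (horizontal axis) for the 16 ABC probes, with SD over 3 arrays as error bars, colours for the subfamilies, crosses for the IR64 mean without replicate 1 and a dashed line where both are equal. ABCG37 lies furthest from the line, at 0.864 in Apo and 0.358 in IR64.

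The arrays of the genotypes did not overlap for 8 of the 16 ABC probes, against 34.5% of all probes, or for 12 without IR64 replicate 1, against 63.0%. Of the 8, ABCG37, both ABCG39 probes, ABCG42 probe a and ABCI12 had the higher value in Apo, and ABCG32, ABCG43 and ABCG44 in IR64. For ABCI12 the difference was 0.0807 (-0.0179 to 0.179) and for ABCG43 -0.114 (-0.232 to 0.0046). For ABCG36, the probe with the highest ratio, it was 0.0281 (-0.228 to 0.284), and for ABCG45 it was 0.0939 (-0.195 to 0.383). The intervals of ABCG36 and ABCG45 span 0 and still allow differences in either direction.

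Without IR64 replicate 1, 4 ABC probes were positive past the threshold for Apo minus IR64, against 33.6% of all probes called in that fit. They were ABCC13 at 0.298 (0.191 to 0.405, adjusted p = 0.00862), ABCG37 at 0.577 (0.260 to 0.894, adjusted p = 0.0236), ABCG42 probe a at 0.170 (0.0646 to 0.275, adjusted p = 0.0322) and ABCG36 at 0.152 (0.0471 to 0.258, adjusted p = 0.0431). For ABCC13 the value on all arrays was 0.187 (-0.0476 to 0.421). The count was 6 when limma weighted arrays by their spread, against 48.3% of all probes: ABCC13, ABCG32, ABCG37, ABCG42 probe a and both ABCG39 probes. With the replicate number as a block it stayed at 0, against 5.36% of all probes.

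**Figure D5:**
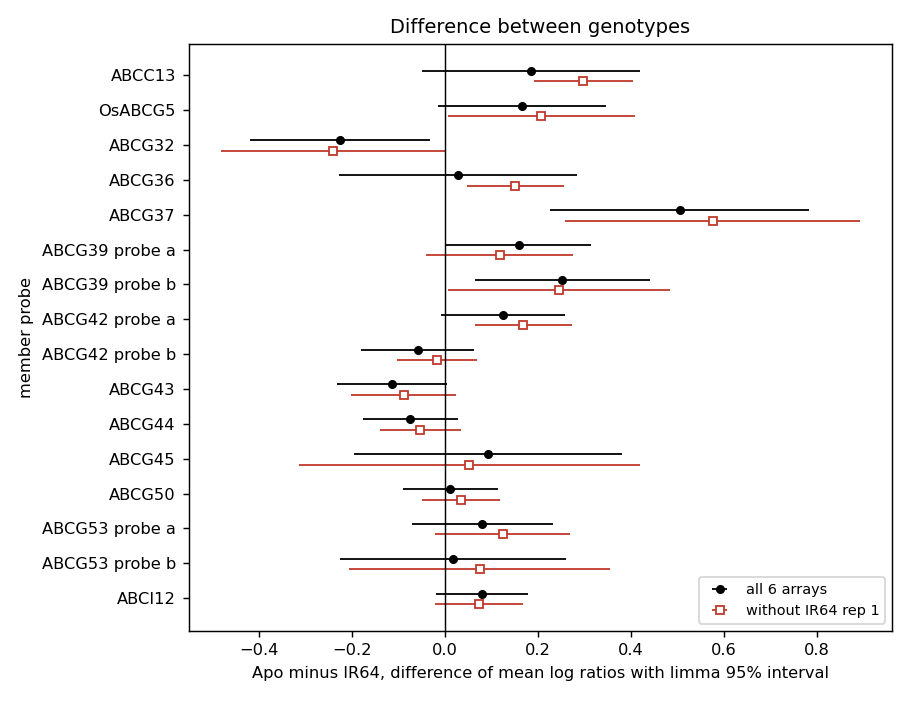
Difference of the mean log ratios, Apo minus IR64 (horizontal axis), with limma's 95% interval for each of the 16 ABC probes (vertical axis), on all 6 arrays (filled circles) and without IR64 replicate 1 (open squares). Without that array ABCC13 moves from 0.187 to 0.298 and ABCG36 from 0.0281 to 0.152.

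Genes that act beside ABC proteins were drawn from name lists. Those for wax and cuticle synthesis, peroxisome and glyoxylate metabolism, and auxin carriers had probes, while those for iron-sulfur cluster assembly and MATE carriers had none. The peroxisomal list was drawn up beside subfamily D and the auxin list beside subfamily B, and neither subfamily had a member here. The wax list held 1 probe, KCS20, an enzyme family that elongates fatty acids for wax, at -0.241 ± 0.140 in Apo (adjusted p = 0.0337) and -0.0430 ± 0.165 in IR64 (adjusted p = 0.671). The IR64 mean of KCS20 was -0.126 without IR64 replicate 1 (adjusted p = 0.230). Of 5 probes for PIN auxin carriers, none was positive and 3 were negative in Apo, against 24.5% and 25.6% of all probes. In IR64 none was positive and 2 were negative, against 22.7% and 20.2%. The probe of PIN5a had means of -0.852 ± 0.104 (Apo) and -0.788 ± 0.155 (IR64), that of PIN10a -0.506 ± 0.338 and -0.525 ± 0.200, and that of PIN4 -0.272 ± 0.229 and -0.219 ± 0.124, the last not past the threshold in IR64. Without IR64 replicate 1 PIN10a missed the threshold in IR64 (-0.449, adjusted p = 0.0792) and PIN2 passed it (-0.185, adjusted p = 0.0462). Of 3 probes for peroxisomal and glyoxylate enzymes, 2 were positive in Apo, against 24.5% of all probes, and 3 in IR64, against 22.7%, with isocitrate lyase (ICL) at 1.63 ± 0.0996 and 1.02 ± 0.297. The multifunctional protein of fatty acid breakdown (MFP) had a probe with means of 0.0452 (Apo) and 0.156 (IR64) and one with 0.483 and 0.528. The list medians in Apo and IR64 were -0.272 and -0.219 for the auxin carriers and 0.483 and 0.528 for the peroxisomal list, beside -0.00318 and 0 over all probes.

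A further gene, listed only under the older name mdr17 (LOC4324720), a name of the multidrug resistance type used for ABCB proteins, carries no systematic ABC name and was no member. It had ratios of -0.732, -0.991 and -0.765 on the Apo arrays and -0.889, -0.216 and -0.134 on the IR64 arrays. IR64 replicate 1 lay within the Apo range and apart from the other IR64 arrays, as for ABCC13. The mean was negative past the threshold in Apo (-0.830 ± 0.141, adjusted p = 0.00339) and not in IR64 (-0.413 ± 0.414, adjusted p = 0.0563). The IR64 mean was -0.175 without IR64 replicate 1 (adjusted p = 0.0937).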

How the data were processed

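The authors deposited 1 log10 ratio per spot and array. The submitters' processing notes name Agilent Feature Extraction 8.1. The base is taken from that software. The sources used here give neither numerator nor dye normalization, background correction or centring. Array medians were 0.00201 for Apo replicate 1 and 0 for the others. Channel intensities were not used, so how far a spot lay above background is unknown. Precision is limited by there being 3 arrays a genotype.

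Platform annotation named 1 gene for 17839 spots, several for 21 and none for 4715. All 17839 matched the gene table of assembly ASM3414082v1, which was used for names and neighbours only. Annotated spots at exactly 0 on all arrays (133) were left out. Ratios were used as deposited. Apart from values at 0, those of the ABC probes on Apo replicate 2 were listed with fewer digits than on the other arrays. On that array 8242 tested probes were positive and 8411 negative, and the rest were at 0. The other arrays had 8523 to 8684 positive and 8569 to 8893 negative. A mean per genotype was fitted with limma 3.58.1 (R 4.3.3) over 17727 probes, followed by eBayes and Benjamini-Hochberg adjustment at 0.05; tables and figures were made in Python 3.11.15. Probes of a gene were kept apart.

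Named were, per subfamily, up to 4 genes with the largest absolute 6-array mean among probes past the threshold in a genotype with one sign on its arrays, members past it for Apo minus IR64, members with opposite genotype means of which at least 1 passed, genes with several probes, and up to 3 genes per companion list by smallest p. Members, lists and tests were chosen with earlier results of these data known. A stray BC1 and an IRO2 synonym were dropped from the marker lists. A between-array scaling written as limma's scale method for log ratios was run as scaling to a common median absolute value. Same-numbered Apo and IR64 arrays deviated together from their genotype means, with correlations over probes of 0.322, 0.261 and 0.340 for numbers 1, 2 and 3. Arrays of unlike number had correlations from -0.260 to 0.0166. Deviations from a mean of 3 arrays sum to 0, so positive values for like numbers force negative ones elsewhere. For the replicate block the number was taken to pair the arrays, while the main fit left this pairing out.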

Additional observations from a re-analysis of the deposited data

How the results depend on the processing

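Centring, the replicate block, the robust prior and both filters on spots at 0 turned no sign among the ABC probes tested under them. Differences that changed sign lay near 0. Arrays scaled to a common spread gave -0.0693 for ABCG36 and -0.0122 for ABCG53 probe b (Apo minus IR64), and array weights gave -0.0199 for ABCG50 in IR64 and -0.00168 in the mean. Leaving out 1 array at a time, values ranged from -0.0407 to 0.152 for ABCG36, from -0.00852 to 0.0356 for ABCG50 and from -0.0772 to 0.103 for ABCG53 probe b (Apo minus IR64), from -0.0445 to 0.0959 for ABCG39 probe b in Apo, and in IR64 from -0.0518 to 0.0369 for OsABCG5, from -0.00384 to 0.0703 for ABCG42 probe a and from -0.0178 to 0.0264 for ABCG50. Of these only ABCG36 without IR64 replicate 1 passed the threshold. The causes were not tested.

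Requiring 2-fold left 6 ABC probes in Apo, 6 in IR64 and 6 for the mean. Over all probes it left 4184 (23.6%), 3141 (17.7%) and 3490 (19.7%). For Apo minus IR64, array weights gave 6 ABC probes and 8559 of all probes, and the replicate block gave 951 of all probes in place of 358. The block ended the call of ABCG43 in IR64, added ABCG39 probe b for the mean and changed no other ABC call. Leaving out 1 array at a time gave 10 to 12 ABC probes in Apo, 7 to 12 in IR64, 11 to 14 for the mean and 0 to 4 for the difference. Over all probes it gave 6650 to 10179 in Apo (37.5% to 57.4%) and 5076 to 8457 in IR64 (28.6% to 47.7%). The mean had 8730 to 10899 (49.2% to 61.5%) and the difference 0 to 5959 (at most 33.6%). For the difference, 5959 came without IR64 replicate 1 and at most 12 without any other array. Averaging the probes of a gene left 9 of 13 ABC genes past the threshold in Apo, against 51.4% of 15702 genes, and 9 in IR64, against 43.9%. Each genotype fitted alone gave 11 ABC probes in Apo, against 51.2% of all probes, and 9 in IR64, against 30.1%, with no value for the difference.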
